A study of Mus musculus with 18 samples.

Results

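The 7 genes followed here, Aqp5, Kcnn4, Slc12a2, Slc12a8, Scnn1a, Scnn1b, and Slc5a8, encode channels and cotransporters that move water and ions across the epithelium of salivary glands. They are 7 of 16593 gene symbols on the array and have 12 of its 25697 probes, all of which were kept and read apart. The genes were chosen by their earlier measured ratios to 0 Gy in these same data, so their values are a description. Counts of member probes past the thresholds of the fit over all probes are given as such and are no independent test of the members. The arrays hold RNA of tissue labelled thyroid. The mice were female, 6 months old, and of the BALB/c nude strain, which lacks a thymus and so most T cells. Mice of 5 groups received 211At, an alpha-emitting halogen, in the tail vein for absorbed doses of 0.05, 0.5, 1.4, 11.2, and 32.4 Gy, and the controls (0 Gy) were treated with an empty syringe. Tissue was taken 24 h later and pooled within each group, and each of the 6 RNA pools was run on 3 arrays. Every n below is thus 3 arrays of 1 pool. The errors reflect the spread of repeated arrays, and differences from mouse to mouse were not measured.

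Salivary fluid is made in the acinar end pieces and changed in the ducts. In acinar cells, the sodium-potassium-chloride cotransporter (Slc12a2) loads the cell with chloride from the blood side, calcium-activated potassium channels (Kcnn4 among them) keep the driving force for its exit, and water follows through the channel Aqp5 in the apical membrane. In duct cells, the epithelial sodium channel, of which Scnn1a and Scnn1b encode the alpha and beta subunits, takes sodium back from the saliva. Slc5a8 encodes a sodium-coupled transporter of monocarboxylates such as lactate, and Slc12a8 belongs to the family of cation-chloride cotransporters, although its own substrate is less settled.

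The tissue label was set against marker genes on the same arrays. Of the 9 thyroid follicle genes with a probe, Tg (thyroglobulin), Slc5a5, Pax8, Nkx2-1, Foxe1, Duox2, and Dio1 were detected on none of the 18 arrays, and Tshr was the only one detected on all 3 arrays of any group (0.5 and 1.4 Gy). Tg, which a thyroid expresses in abundance, lay at median signals of 90.9 to 95.2. Iyd was detected on 1 control array. The data thus go against the label. Several genes of salivary secretory cells, by contrast, were detected on all arrays. Klk1, a kallikrein of salivary ducts, had group medians of 8390 (1.4 Gy) to 26581 (0.5 Gy), and the parotid gene Bpifa2 of 621 (1.4 Gy) to 30095 (0 Gy). Other genes of these lists were undetected in some groups. Within the arrays of a group, log2 signals correlated at r of 0.9914 to 0.9965, median signals before normalization were 86.3 to 115.3, and 9737 to 10995 probes were detected per array (detection p under 0.01).

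The sequence before the transcription start is shown for the 4 genes with 1 start in RefSeq's table. Each line gives the 250 bases before the start on the plus strand of GRCm38.p6. Capitals mark matches to the GC box (GGGCGG, bound by Sp1) or the ETS core (AGGAAG), on either strand.
Aqp5, chr15:99590778-99591027: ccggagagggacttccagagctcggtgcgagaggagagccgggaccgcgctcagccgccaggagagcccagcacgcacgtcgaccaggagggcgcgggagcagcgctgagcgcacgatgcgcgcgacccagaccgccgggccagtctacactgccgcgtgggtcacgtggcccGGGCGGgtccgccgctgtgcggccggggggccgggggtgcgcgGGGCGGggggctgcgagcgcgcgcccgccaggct
Kcnn4, chr7:24370013-24370262: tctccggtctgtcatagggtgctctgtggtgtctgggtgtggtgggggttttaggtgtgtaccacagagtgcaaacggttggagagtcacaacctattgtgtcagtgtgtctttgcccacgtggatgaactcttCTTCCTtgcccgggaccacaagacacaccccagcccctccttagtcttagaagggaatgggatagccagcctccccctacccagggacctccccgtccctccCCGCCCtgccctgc
Scnn1b, chr7:121864788-121865037: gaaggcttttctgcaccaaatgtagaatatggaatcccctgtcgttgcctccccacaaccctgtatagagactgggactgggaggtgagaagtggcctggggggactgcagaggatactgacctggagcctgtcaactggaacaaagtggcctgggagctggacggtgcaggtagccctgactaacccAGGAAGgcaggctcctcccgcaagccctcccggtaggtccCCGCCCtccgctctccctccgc
Slc5a8, chr10:88885742-88885991: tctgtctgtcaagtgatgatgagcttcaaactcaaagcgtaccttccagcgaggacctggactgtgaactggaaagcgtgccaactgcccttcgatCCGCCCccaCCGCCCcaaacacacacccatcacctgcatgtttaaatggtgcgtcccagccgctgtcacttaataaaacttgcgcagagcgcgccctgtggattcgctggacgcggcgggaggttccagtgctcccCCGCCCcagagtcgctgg
A GC box was found before 4 of the 5 members with a start in the table, at 3 places for Slc5a8 and at 2 for Aqp5, and in 32.7% of all 32851 windows of that length. The ETS core was found before 3 of the 5 (Kcnn4, Scnn1b, and 1 of the 3 starts of Slc12a8), against 29.5% of all windows. Members were counted by gene, with a match at any start, while the shares count windows, so counts and shares differ in unit. A TATA box (TATAAA) and the steroid receptor half-site (AGAACA) were found before none of them, against 12.4% and 16.1% of all windows, and no 2 matches overlapped. These are matches of letters and were not tested as binding sites. The window of Aqp5 had the highest GC content of the 4 (78.4%), while the other 3 had 58.8 to 60.8%.

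Each of the 7 members had a probe that all 3 arrays of some group detected, and this held for 9 of the 12 probes. Signals here are those before normalization, quantile-normalized over all 18 arrays together, and ratios are log2 differences of group means with their standard error (SE). A probe was called where limma gave an adjusted p under 0.01, over all 25697 probes, and a change of at least 1.5-fold. Of the 12 probes, 9 were called higher than at 0 Gy after 0.05 Gy, against 2.59% of all probes called higher and 2.16% called lower. After 0.5 Gy, 9 were called higher, with 3.66% of all probes called higher and 3.88% lower. After 1.4 Gy, 7 probes of 5 genes were called lower and 0 higher, against 1.19% of all probes lower and 1.23% higher. After 11.2 Gy, 9 were called higher (all probes: 1.83% higher, 0.946% lower), and after 32.4 Gy, 8 probes of 6 genes (1.3% higher, 0.771% lower). The 5 dose comparisons share the same 3 control arrays, and they are the contrasts that chose the genes, so nothing is read from these shares. The same holds for 1.4 Gy against the mean of 11.2 and 32.4 Gy, which reuses the dose arrays of those contrasts. There 9 of the 12 probes were called lower, beside 2.51% of all probes lower and 1.5% higher.

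The median log2 ratio of the 9 detected probes was 1.77 at 0.05 Gy (range 0.92 to 2.57) and 1.95 at 0.5 Gy (1.18 to 2.38). It was −0.87 at 1.4 Gy (−2.17 to −0.01), 1.5 at 11.2 Gy (0.70 to 2.07), and 1.04 at 32.4 Gy (0.56 to 1.40), while the median of all probes lay between −0.01 and 0.00 at each dose. On all 9 probes the lowest group was 1.4 Gy, the next was 0 Gy, and the third from the bottom was 32.4 Gy. The highest was 0.05 Gy for Slc12a2 (both detected probes) and Slc5a8, and 0.5 Gy for the other 6 probes. On 9 of 9 probes, every array of 0.05, 0.5, 11.2, and 32.4 Gy lay above every control array, and the same held for the signals before normalization and for the authors' normalized values. The probe of Scnn1a counts among the 9 only through these doses, since no array of 0 or 1.4 Gy detected it. Its part in the medians, the order, and these counts was therefore partly set by the filter on detection. At 1.4 Gy, all arrays lay below the controls on 8 of the 9 probes, on 6 before normalization, and on 7 in the authors' values. The share of all probes that separate in this way was not counted, so these counts are not read as particular to the members. These are pools of tissue, in which fewer cells of a type and less RNA per cell cannot be told apart.

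**Figure D1:**
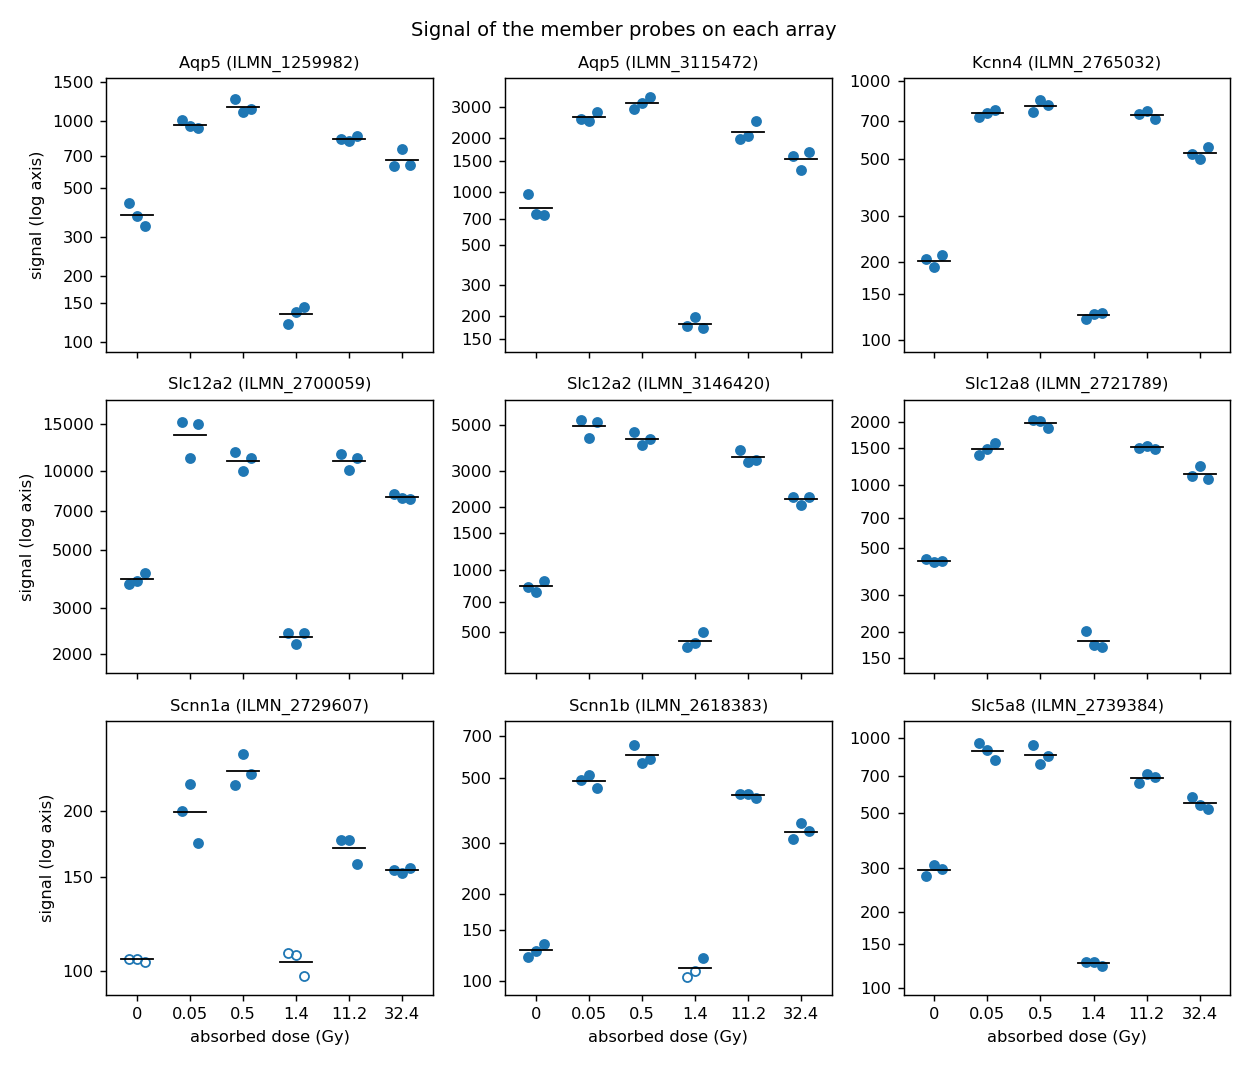
Signal of the 9 detected member probes on each of the 18 arrays (quantile-normalized together, log axis, scale differs between panels) by absorbed dose in Gy. Points are arrays, filled where the probe was detected and open where it was not, and bars are geometric means. In each panel the arrays of 1.4 Gy lie below those of the other 4 doses, and on 8 of the 9 probes they also lie below those of 0 Gy.

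Aqp5, the apical water channel, was read by 2 probes. On the brighter one (ILMN_3115472), the 3 control arrays read 974, 756, and 741, the arrays of 0.05 Gy 2559, 2505, and 2826, and those of 0.5 Gy 2930, 3152, and 3396. At 1.4 Gy the signal was 176, 198, and 172, at 11.2 Gy 1971, 2050, and 2501, and at 32.4 Gy 1589, 1322, and 1676. No 2 dose groups overlapped, and the order from high to low was 0.5, 0.05, 11.2, 32.4, 0, and 1.4 Gy. The log2 ratios to 0 Gy were 1.68, 1.95, −2.17, 1.40, and 0.90 in order of dose, each ± 0.10 (SE). The 4.5-fold lower signal at 1.4 Gy was the widest fall from 0 Gy among the 12 probes. The dimmer probe (ILMN_1259982) put the groups in the same order, again with no overlap, from a geometric mean of 1165 at 0.5 Gy down to 377 at 0 Gy and 134 at 1.4 Gy. Its log2 ratios were smaller at 1.4 Gy (−1.50 ± 0.08) and at 0.05 Gy (1.35 ± 0.08), and its signal at 1.4 Gy, 121 to 144, lay close to the lowest detected signals (110 to 117 over the arrays).

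Kcnn4, the intermediate-conductance calcium-activated potassium channel, has 1 probe (ILMN_2765032). It read 205, 191, and 213 at 0 Gy, 723, 749, and 771 at 0.05 Gy, and 757, 841, and 802 at 0.5 Gy. At 1.4 Gy it read 121, 126, and 127, 742, 761, and 714 at 11.2 Gy, and at 32.4 Gy 521, 501, and 555. The groups of 0.05, 0.5, and 11.2 Gy overlapped each other in turn at the top, 32.4 Gy lay below them, and 0 and 1.4 Gy lay lower still and apart. The log2 ratios to 0 Gy were 1.88, 1.98, −0.70, 1.87, and 1.38 in order of dose, each ± 0.06 (SE), which is 3.95-fold higher at 0.5 Gy and 1.62-fold lower at 1.4 Gy.

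Slc12a2, the cotransporter that brings chloride into acinar cells, has 4 probes, of which 2 were detected on every array and 2 on none. The brightest (ILMN_2700059) read 3702, 3797, and 4090 at 0 Gy, 15354, 11135, and 15061 at 0.05 Gy, and 11762, 9949, and 11135 at 0.5 Gy. It read 2401, 2192, and 2410 at 1.4 Gy, 11594, 10025, and 11189 at 11.2 Gy, and 8144, 7846, and 7800 at 32.4 Gy. Unlike Aqp5, its highest group was 0.05 Gy, although the 3 highest groups overlapped in turn, and its 3 arrays at 0.05 Gy spread more (SD 0.26 on the log2 scale) than in the other groups (0.03 to 0.12). Its log2 ratios were 1.83 ± 0.09 at 0.05 Gy, 1.5 ± 0.09 at both 0.5 and 11.2 Gy, 1.04 ± 0.09 at 32.4 Gy, and −0.73 ± 0.09 at 1.4 Gy.

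The other detected probe of Slc12a2 (ILMN_3146420) gave the same order of groups with wider ratios. It read 782 to 886 at 0 Gy, 4337 to 5306 at 0.05 Gy, 4008 to 4637 at 0.5 Gy, 421 to 498 at 1.4 Gy, 3304 to 3775 at 11.2 Gy, and 2061 to 2252 at 32.4 Gy. The 5.94-fold difference at 0.05 Gy (log2 ratio 2.57 ± 0.08) was the widest rise of any member probe at any dose, and that at 1.4 Gy was 1.83-fold lower (−0.87 ± 0.08). The remaining probes (ILMN_2617892 and ILMN_3068197) stayed at signals of 85.5 to 108 on all arrays, with detection p-values above 0.01 throughout, and were not called at any dose. Which transcripts each probe reads was not analysed here.

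Slc12a8 has 1 probe (ILMN_2721789). The control arrays read 445, 432, and 434, those of 0.05 Gy 1402, 1487, and 1585, and those of 0.5 Gy 2053, 2022, and 1882. At 1.4 Gy they read 201, 174, and 169, at 11.2 Gy 1509, 1548, and 1496, and at 32.4 Gy 1108, 1241, and 1068. Only 0.05 and 11.2 Gy overlapped among neighbours in the order, and 0.5 Gy stood above both. The log2 ratios were 1.77, 2.18, −1.27, 1.80, and 1.38 in order of dose, each ± 0.07 (SE), with a 2.42-fold lower signal at 1.4 Gy.

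The subunits of the epithelial sodium channel had control signals near or below the lowest detected signals of the arrays (110 to 117), so that these probes could show little or no fall from 0 Gy. Scnn1b, the beta subunit (ILMN_2618383), read 121, 127, and 135 at 0 Gy, 493, 514, and 462 at 0.05 Gy, and 652, 565, and 584 at 0.5 Gy. It read 104, 109, and 120 at 1.4 Gy, of which only the last was a detected signal, and 440, 440, and 429 at 11.2 Gy and 308, 350, and 329 at 32.4 Gy. No 2 groups overlapped. Its log2 ratios were 1.94, 2.23, 1.77, and 1.36 at 0.05, 0.5, 11.2, and 32.4 Gy, each ± 0.07 (SE), and that at 1.4 Gy was −0.21 ± 0.07 and was not called. The 4.69-fold higher signal at 0.5 Gy was the widest of any member with a single probe.

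Scnn1a, the alpha subunit (ILMN_2729607), was detected on no array of 0 or 1.4 Gy and on all arrays of the other 4 doses. It read 105, 105, and 104 at 0 Gy, 200, 225, and 174 at 0.05 Gy, 224, 256, and 235 at 0.5 Gy, 108, 107, and 97.8 at 1.4 Gy, 176, 176, and 159 at 11.2 Gy, and 155, 153, and 156 at 32.4 Gy. The control and 1.4 Gy arrays overlapped, and both lay below all others. Since its control signal was not above background, the ratios are bounds, set against the higher of its own signal and the lowest detected signal of each control array. Scnn1a was at least 1.75-fold higher at 0.05 Gy, at least 2.09-fold at 0.5 Gy, at least 1.5-fold at 11.2 Gy, and at least 1.36-fold at 32.4 Gy. The measured log2 ratios were 0.92, 1.18, 0.70, and 0.56 (each ± 0.07 SE), of which that at 32.4 Gy was under 1.5-fold and not called, and no fold is given for 1.4 Gy, where both groups were undetected.

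Slc5a8, the monocarboxylate transporter, has 2 probes. On the detected one (ILMN_2739384), the arrays read 280, 310, and 297 at 0 Gy, 956, 894, and 812 at 0.05 Gy, and 938, 787, and 849 at 0.5 Gy. They read 126, 127, and 122 at 1.4 Gy, 662, 714, and 697 at 11.2 Gy, and 578, 540, and 520 at 32.4 Gy. The 2 lowest doses overlapped and were the highest groups, and the others did not overlap. The log2 ratios were 1.58, 1.53, −1.24, 1.23, and 0.89 in order of dose, each ± 0.07 (SE), so that the signal at 1.4 Gy was 2.36-fold below the controls. The other probe (ILMN_1241067) was undetected on all 18 arrays, at 81.6 to 99.7, and its ratios lay within −0.12 and 0.06.

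**Figure D2:**
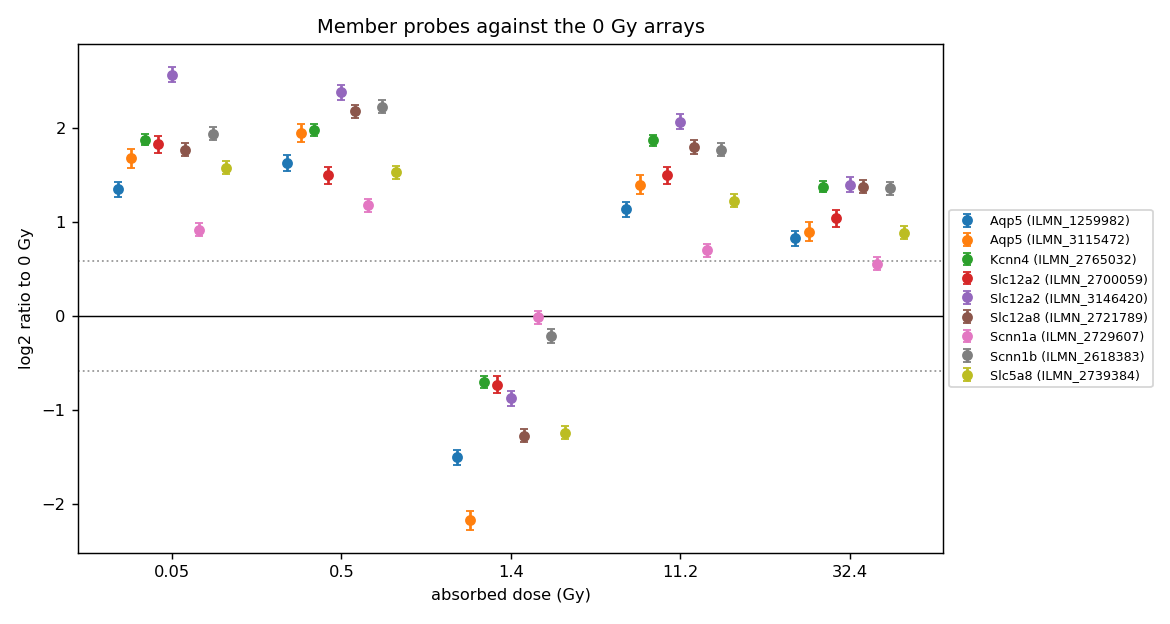
Log2 ratio of each detected member probe to the 3 arrays of 0 Gy, by absorbed dose in Gy. Points are differences of group means, bars are ± 1 SE (limma, 3 arrays of 1 pool per group), and dotted lines mark 1.5-fold. At 1.4 Gy the probe of Scnn1a lies at −0.01 and that of Scnn1b at −0.21, while the other 7 lie between −0.70 and −2.17.

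Set against the mean of 11.2 and 32.4 Gy, the 1.4 Gy arrays were lower on all 9 detected probes without overlap. The share of all probes without overlap was not counted here either. The log2 difference was −3.32 ± 0.09 and −2.48 ± 0.07 for the 2 probes of Aqp5, −2.86 ± 0.06 for Slc12a8, −2.61 ± 0.07 and −2.00 ± 0.08 for Slc12a2, and −2.32 ± 0.05 for Kcnn4. For Slc5a8 it was −2.29 ± 0.06, for Scnn1b −1.77 ± 0.06, and for Scnn1a −0.64 ± 0.06, a bound of at least 1.45-fold since no array of 1.4 Gy detected the probe. These 9 arrays lie in 1 of the sets that the authors normalized together.

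The authors' normalized table holds 2 sets with different distributions, 6 arrays of 0.05 and 0.5 Gy (upper quartile 176.2) and 12 arrays of 0, 1.4, 11.2, and 32.4 Gy (241.9). In the authors' values the median ratio of all probes to 0 Gy shifted to −0.19 at both 0.05 and 0.5 Gy, and the ratios of the members to 0 Gy were smaller at these doses. The median over the 9 probes was 1.11 at 0.05 Gy (range 0.72 to 1.90) and 1.29 at 0.5 Gy (0.93 to 1.92), whereas at 1.4, 11.2, and 32.4 Gy it was −0.91, 1.38, and 0.92. For Aqp5 (ILMN_3115472) the ratio at 0.05 Gy was 1.02 in the authors' values and 1.68 with the 18 arrays normalized together, and at 11.2 Gy it was 1.25 and 1.40. For the pair of lowest doses, the normalization set and the dose group cannot be told apart in the authors' values. The order of doses above 0 Gy therefore rests on the normalization over all arrays. For Kcnn4 it was 1.98 at 0.5 Gy and 1.87 at 11.2 Gy with the arrays together but 1.46 and 1.96 in the authors' values.

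**Figure D3:**
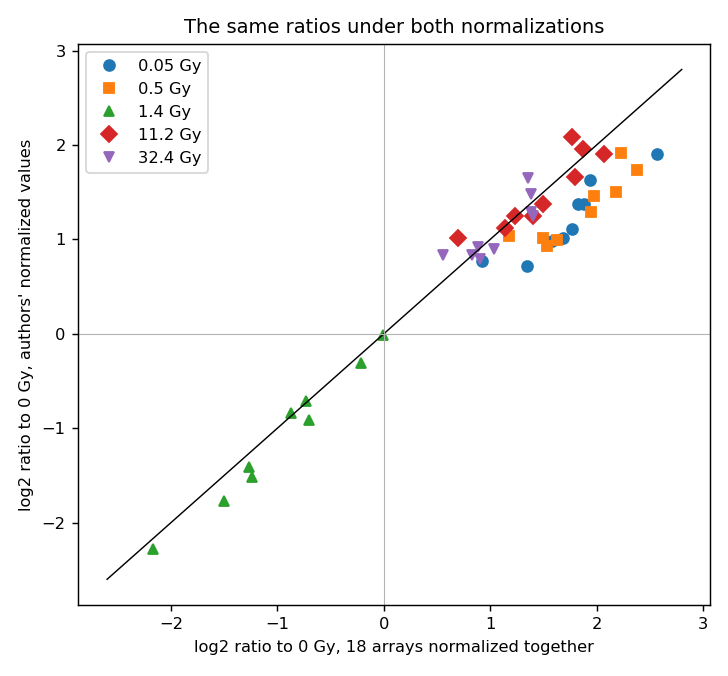
Log2 ratio to 0 Gy of the 9 detected member probes at each dose, with all 18 arrays normalized together (x axis) against the authors' normalized values (y axis). The line marks equal values. Points of 0.05 and 0.5 Gy lie below the line, with medians of 1.11 and 1.29 against 1.77 and 1.95, and no point changes sign.

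Other genes of epithelial ion and water transport were taken from a list by role, of which 33 of 39 had a probe (49 probes, 23 of them detected in a group). Called higher and lower were 4 and 2 of the 49 probes at 0.05 Gy, 5 and 1 at 0.5 Gy, 0 and 4 at 1.4 Gy, 3 and 4 at 11.2 Gy, and 2 and 3 at 32.4 Gy. At an unadjusted p under 0.05, 14 to 23 of the 49 passed at these doses. The share of all probes that passed it was not counted, so these numbers are not read as particular to the list. The median log2 ratio of the 49 probes lay between −0.01 and 0.06, beside −0.01 to 0.00 for all probes. Over the 23 detected probes it was 0.11, 0.12, −0.13, −0.06, and −0.04 in order of dose. The other 26 probes were not detected on all 3 arrays of any group, so their ratios say little about a change. With the neqc background correction the calls at 0.05 Gy numbered 15.

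Among those that followed them was the sodium pump, which sets the sodium gradient that drives the cotransporters. Atp1b1, its beta subunit in most epithelia, read 2442 to 2860 at 0 Gy, 7384 to 8144 at 0.05 Gy, 649 to 665 at 1.4 Gy, and 7696 to 8144 at 11.2 Gy. Its log2 ratio was 1.56 ± 0.06 at 0.05 Gy (limma, adjusted p = 1.73e-17) and −2.00 ± 0.06 at 1.4 Gy (adjusted p = 7.07e-20). Atp1b3, another beta subunit, did not share this pattern and was called at 0.5 Gy alone among the doses, where it was lower (−0.69 ± 0.06, adjusted p = 2.26e-10 by limma).

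Car12, a membrane-bound carbonic anhydrase, read 161 to 194 at 0 Gy, 527 to 614 at 0.5 Gy, and 105 to 119 at 1.4 Gy, where 1 of 3 arrays detected it. It rose by 1.73 ± 0.10 at 0.5 Gy and fell by 0.66 ± 0.10 at 1.4 Gy on the log2 scale (limma, adjusted p = 2.01e-14 and 1.14e-05). The gamma subunit of the sodium channel, Scnn1g, behaved like the alpha and beta subunits. It was called higher at 0.05, 0.5, and 11.2 Gy (0.73, 0.98, and 0.68, each ± 0.07), and its 3 arrays at 1.4 Gy were undetected (log2 ratio −0.21 ± 0.07, adjusted p = 0.0542 by limma). All 3 subunits of the channel on the array were thus called higher at these 3 doses and none was called at 1.4 Gy, where the control signals left little room for a fall, while at 32.4 Gy the beta subunit alone was called.

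The chloride channels were less uniform. Ano1, the calcium-activated chloride channel through which acinar cells release chloride, lay at 232 to 246 at 0 Gy and 198 to 298 at 0.05 Gy, with overlapping arrays and a log2 ratio of 0.00 ± 0.09 (adjusted p = 0.988 by limma). It fell at 1.4 Gy to 128 to 140 (−0.85 ± 0.09, adjusted p = 2.43e-08). Cftr, a chloride channel of duct cells, was called higher at 0.5 Gy alone among the doses (0.90 ± 0.06, adjusted p = 2.23e-12) and was undetected at 1.4 Gy and on 2 of the 3 control arrays. Slc9a3r1, a scaffold protein of apical transporters, was higher at 0.05 and 0.5 Gy (0.67 and 1.00, each ± 0.06) and lower at 1.4 Gy (−0.60 ± 0.06, adjusted p = 3.14e-08 by limma). Car6, a carbonic anhydrase secreted into saliva, was called in no comparison with 0 Gy, and lower at 1.4 Gy, where it was undetected, than at the mean of 11.2 and 32.4 Gy.

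The other water channels of the list moved the opposite way to Aqp5 where they were called. Aqp1, a water channel mostly of blood vessel endothelium, has 3 detected probes, and the brightest (ILMN_2756486) read 2442 to 2505 at 0 Gy, 1368 to 1598 at 11.2 Gy, and 2272 to 2390 at 1.4 Gy. It was lower at 11.2 Gy (−0.72 ± 0.07, adjusted p = 5.05e-09 by limma), and at 1.4 Gy the ratio was −0.09 ± 0.07 (adjusted p = 0.503). Its other probes gave −0.65 and −0.89 at 11.2 Gy. Aqp11, an intracellular water channel, was called lower at 11.2 Gy alone among the doses (−1.21 ± 0.08, adjusted p = 6.43e-13) and higher at 1.4 Gy than at the mean of 11.2 and 32.4 Gy (1.07 ± 0.07).

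In that last comparison, 3 probes of the list (2 genes) were called higher and 6 probes of 6 genes lower, beside 26 at an unadjusted p under 0.05. For that unadjusted count too, the share of all probes was not counted. The lower genes were Atp1b1 (−3.25 ± 0.06), Car12 (−1.88 ± 0.09), and Slc9a3r1 (−0.95 ± 0.06), and Scnn1g, Cftr, and Car6, which no array of 1.4 Gy detected. As bounds, these were at least 1.59-, 1.38-, and 1.36-fold lower. The adjusted p by limma was at most 0.00838 for each of the 6. The higher ones were Aqp11 and 2 of the 3 probes of Aqp1.

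The relatives of the cotransporters in the Slc12 and Slc5 families were mostly undetected, with 5 of 19 probes (12 genes) detected in a group. No probe of the family list was called at 1.4, 11.2, or 32.4 Gy against 0 Gy, although 5, 4, and 4 passed an unadjusted p under 0.05 in limma. How many of all probes passed it was not counted. Slc5a1, a sodium-glucose cotransporter, was called higher at 0.05 and 0.5 Gy (0.66 and 0.61, each ± 0.08), and Slc5a6, a vitamin transporter, was called higher at 1.4 Gy than at the mean of 11.2 and 32.4 Gy (0.59 ± 0.06).

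Of the regulators of these transporters, 19 of 22 genes had a probe (37 probes, 16 detected), and those called higher and lower numbered 2 and 1 at 0.05 Gy, 4 and 1 at 0.5 Gy, 1 and 3 at 1.4 Gy, 5 and 0 at 11.2 Gy, and 1 and 1 at 32.4 Gy. Stk39 encodes the kinase SPAK, which activates the cotransporter encoded by Slc12a2. It read 235 to 266 at 0 Gy, 886 to 971 at 0.05 Gy, and 197 to 213 at 1.4 Gy. Its ratio was 1.88 ± 0.07 at 0.05 Gy (adjusted p = 9.87e-19 by limma), and at 1.4 Gy its arrays lay below the controls but under 1.5-fold (−0.30 ± 0.07). Prss8, prostasin, a protease that activates the sodium channel, was called lower at 1.4 Gy on both of its probes (−0.95 ± 0.08 and −0.93 ± 0.10) and higher at 0.5 and 11.2 Gy on both. Sgk1, a kinase that raises sodium channel activity, followed another course and was called higher at 1.4 Gy (0.65 ± 0.07) and 11.2 Gy (0.81 ± 0.07, limma adjusted p = 8.54e-10).

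The muscarinic receptor Chrm3, which starts fluid secretion, was detected on all control arrays (122 to 126) and on none of 1.4 Gy (89.5 to 104), so that it was at least 1.11-fold lower, and it was not called. P2rx4, an ATP-gated channel, was called lower at 1.4 Gy on 1 of its 2 probes (−0.84 ± 0.08 and −0.33 ± 0.06). The calcium release channels Itpr2 and Itpr3 went apart at 0.5 Gy, where Itpr2 was lower (−0.62 ± 0.09) and Itpr3 higher (0.63 ± 0.07).

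**Figure D4:**
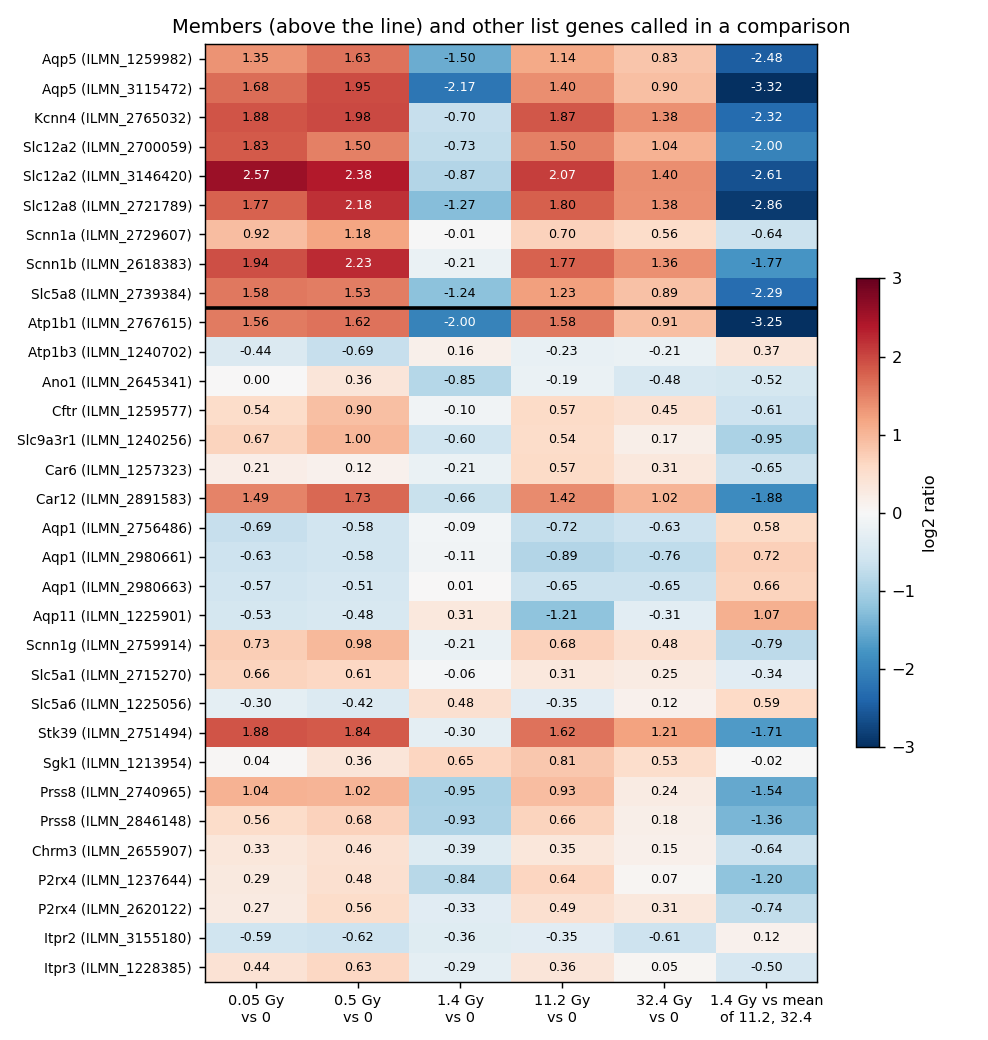
Log2 ratios (colour and printed value) of the 9 detected member probes, above the line, and of the probes of other transport, family, and regulator genes called in at least 1 comparison, below it. Columns are the 5 doses against 0 Gy and 1.4 Gy against the mean of 11.2 and 32.4 Gy. Atp1b1, Car12, and Prss8 show the members' signs at each dose, with Atp1b1 at −2.00 at 1.4 Gy, whereas the probes of Aqp1 lie between −0.51 and −0.89 at 0.05, 0.5, 11.2, and 32.4 Gy.

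By summed signal, a single list of cell type markers followed the order of the members' groups, and the others did not. Of the 11 genes of salivary duct and gland epithelium with a probe, the summed signal was 2341 to 2453 at 0 Gy, 6151 to 6403 at 0.05 Gy, 8740 to 9345 at 0.5 Gy, 1296 to 1348 at 1.4 Gy, 5231 to 5412 at 11.2 Gy, and 3899 to 4048 at 32.4 Gy. All 3 arrays detected 7 of the 11 in the controls, 5 at 1.4 Gy, 11 at 0.5 Gy, and 8 at the other doses, and the undetected ones at 1.4 Gy were Foxi1, Krt19, and Krt5. Of its 15 probes, 6 were called lower at 1.4 Gy, and 9, 11, 8, and 5 were called higher at the other doses in turn. Krt8, a keratin of glandular epithelium, had median signals of 578 at 0 Gy, 1593 at 0.05 Gy, and 165 at 1.4 Gy. The order of the 6 groups was thus the one of Aqp5, and the part of these cells in the members' values was not tested.

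The secretory genes of the submandibular and sublingual glands (9 with a probe) summed to 40387 to 43844 at 0 Gy, 130442 to 135313 at 0.05 Gy, 130920 to 145886 at 0.5 Gy, 51993 to 53224 at 1.4 Gy, 125455 to 132273 at 11.2 Gy, and 103089 to 107328 at 32.4 Gy. Unlike the members, this sum was higher at 1.4 than at 0 Gy. Its largest part at 1.4 Gy was Prol1 (median 34656, against 2039 at 0 Gy). Klk1 had a lower median at 1.4 Gy than in the controls (8390 against 10311, with overlapping arrays). Egf was lower there without overlap (228 to 238 against 287 to 321), although 5 genes of the list were called higher at 1.4 Gy. All 3 arrays detected 6 of the 9 at 0 Gy and 7 or 8 at each dose. Smgc and Klk1b26 were undetected at 0 Gy, where the sum was carried by Dcpp1 (median 29015) and Klk1 (10311), while Dcpp2 was undetected at every dose. Of their 13 probes, 11 were called higher at 0.05, 0.5, 11.2, and 32.4 Gy and 9 at 1.4 Gy, and that of Dcpp1 was called lower at every dose. Egf, a product of granular duct cells, had a median of 293 at 0 Gy, 4118 at 0.05 Gy, and 230 at 1.4 Gy.

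The secretory genes of the parotid gland (6 with a probe) went the other way and were highest in the controls. They summed to 104669 to 116845 at 0 Gy, 5149 to 5282 at 0.05 Gy, 8471 to 10643 at 0.5 Gy, 1794 to 1814 at 1.4 Gy, 24069 to 27203 at 11.2 Gy, and 6669 to 7160 at 32.4 Gy. All 6 were detected at 0 Gy, and Prb1 was undetected at each dose. Their 7 probes were all called lower at 0.05, 0.5, 1.4, and 32.4 Gy, and 6 of them at 11.2 Gy. Skeletal muscle genes (5 of 5 detected in each group) summed to 1260 to 1286 at 0 Gy, 8901 to 10144 at 0.05 Gy, 7288 to 8296 at 0.5 Gy, 3031 to 3114 at 1.4 Gy, 6041 to 6197 at 11.2 Gy, and 13636 to 13982 at 32.4 Gy, and all 5 were called higher at every dose. The tissue makeup of the pools and the absorbed dose cannot be told apart, with 1 pool for each dose.

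The airway genes with a probe (6) summed to 564 to 615 over all 18 arrays, with Foxj1 alone detected on any, and no probe of theirs was called. For thyroid follicle genes the sum was 832 to 903 over all arrays, again with no probe called. The parathyroid gene Pth was undetected throughout.

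**Figure D5:**
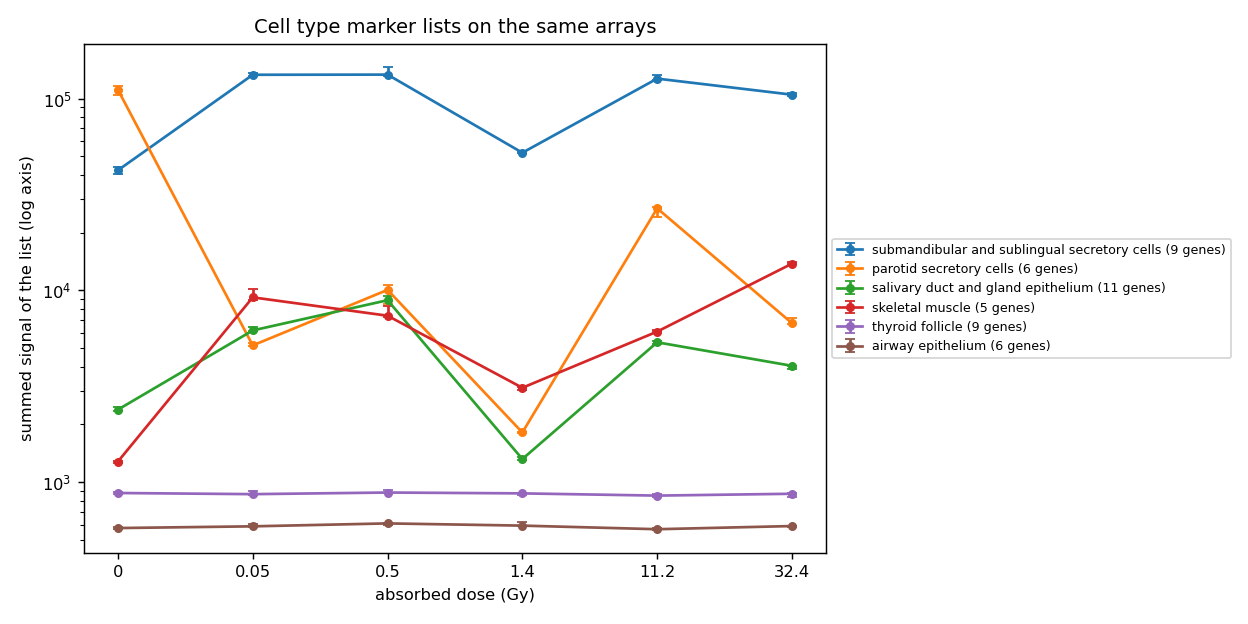
Summed signal of 6 marker lists (log axis, brightest probe of each gene) by absorbed dose in Gy. Points are the median of 3 arrays and bars reach from the lowest to the highest array. The duct and gland list lies at 2384 at 0 Gy, at 1317 at 1.4 Gy, and at 4035 or more at the other 4 doses, while the thyroid and airway lists stay between 564 and 903.

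Over the 18 arrays, which come from 6 pools, the 36 pairs of the 9 detected probes correlated at Pearson's r of 0.856 to 0.993 (median 0.962). These points share their pools and their normalization, so that the values describe likeness on these arrays and no more. The 2 probes of Slc12a2 were the most alike (0.993), and Aqp5 (ILMN_3115472) and Scnn1a the least. Among 10929 probes detected in a group, those most like each member by r over the 18 arrays were, for Aqp5, P4hb, Ckmt1, and Tpd52l1 (0.989 to 0.990). P4hb encodes a protein disulfide isomerase of the endoplasmic reticulum, and Ckmt1 a mitochondrial creatine kinase. For Kcnn4 they were the keratin Krt23 (0.997), Fxyd2, a regulator of the sodium pump (0.994), and Unc13b, a protein of vesicle priming (0.994).

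For Slc12a2 the nearest probes were those of Ncald, Krt23, and Stk39 (0.980 to 0.985), the last being its own kinase. Those nearest to Slc12a8 belonged to the mucosal chemokine Cxcl17 (0.997), the calcium pump Atp2a3 (0.994), and the phosphatase inhibitor Ppp1r1b (0.994). For Scnn1a they were Klhl21, the potassium channel Kcnk5, and the tight junction protein Cldn4 (0.982 to 0.987). Scnn1b lay nearest to Rap1gap2, Fxyd2, and Egf (0.990 to 0.991), and Slc5a8 to Lrrc26, a regulatory subunit of large-conductance potassium channels, Prom2, and Ppp1r1b (0.990 to 0.994).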

How the data were processed

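Per the labels and methods, the arrays were Illumina MouseRef-8 BeadChips, read by the authors with BeadScan. The authors deposited intensity on the linear scale for each probe and array, before and after quantile normalization, each with a detection p-value. Background subtraction is not stated. Because the deposited normalized table holds 2 sets normalized apart, the values before normalization were put on the log2 scale and quantile-normalized over all 18 arrays, and the authors' normalized values served as an alternative. The 815 control probes were not used, and 1719 of 25697 probes have no symbol in the probe table and are not named. Group means were fitted in limma 3.58.1 under R 4.3.3 over all 18 arrays, with Benjamini-Hochberg adjustment over all probes, and every adjusted p is limma's. The fit was tested on simulated data. Python 3.11.15 with matplotlib 3.10.9 made the figures. A bound ("at least") sets the bright group's mean against, per array, the higher of the dim probe's signal and the lowest detected one. Marker sums take the brightest probe of each gene. Promoter windows are RefSeq's, and each motif was searched on both strands. The members and lists were chosen with earlier results of these data known. Named were all members, up to 25 genes of the transport list and all of the family, regulator, and thyroid lists that were called, and the 3 probes of other genes most like each member's brightest probe; marker genes given as examples were picked after their values were seen. Alternatives were the authors' values, background correction by neqc, scaling to the 75th percentile, detected probes only, a replicate block, a fit to the compared groups only, leaving out each array, and detection at p under 0.05. The number of arrays limits the precision, and p-values measure only the spread between arrays of 1 pool.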

Additional observations from a re-analysis of the deposited data

Results flagged for a closer look

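On 7 of the 12 member probes, the call at 1.4 Gy against 0 Gy was opposite in sign to the calls at all 4 other doses. The share of all probes with such a reversal was not counted, so the pattern is not read as particular to the members. The difference between these effects is given as the log2 difference of 1.4 Gy and the mean of 11.2 and 32.4 Gy. It was −2.48 and −3.32 for the 2 probes of Aqp5, −2.32 for Kcnn4, −2.00 and −2.61 for the detected probes of Slc12a2, −2.86 for Slc12a8, and −2.29 for Slc5a8. Each was past the thresholds of the limma fit over all probes. As the genes were chosen by their values in these data, this is no independent test, and whether the effects differ was not tested on other samples. The probes of Scnn1a and Scnn1b were not among those 7. Their control signals lay near or below the lowest detected ones and left little or no room for a fall at 1.4 Gy. On Scnn1b the 1.4 Gy arrays did lie below the controls (log2 ratio −0.21), but under 1.5-fold.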

How the results depend on the processing

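The counts of member probes called stayed within 1.5 times under every alternative run. At 1.4 Gy they were 6 with scaling to the 75th percentile and 8 with neqc, against 7, and at 32.4 Gy 9 with the authors' values or neqc, against 8. None of the 51 member ratios past the thresholds changed sign. Leaving out any 1 array left each member count as it was, and the ratio of the brightest Slc12a2 probe at 0.05 Gy was 1.98 without array 2 of that group, against 1.83. Detection at p under 0.05 gave the same numbers of detected member probes.

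Counts over all probes depended on the processing more. In the authors' values the 0.05 Gy count was 4300 (268 higher and 4032 lower) and the 0.5 Gy count 4313 (383 higher and 3930 lower), where set and dose cannot be told apart, against 1221 (666 and 555) and 1938 (940 and 998). The transport list gave 11 calls there at 0.5 Gy, against 6. With neqc, which subtracts background, the counts were 2546, 3592, 1345, 1588, and 1150 in order of dose, and 2224 for 1.4 Gy against the mean of 11.2 and 32.4 Gy. The main counts of the last 4 were 620, 714, 531, and 1029. For the transport list, neqc gave 15, 13, 11, and 9 calls at 0.05, 0.5, 11.2, and 32.4 Gy and 16 in the last comparison, against 6, 6, 7, 5, and 9. Scaling to the 75th percentile split the calls into 481 higher and 278 lower at 1.4 Gy, 361 and 548 at 11.2 Gy, and 996 and 547 in the last comparison, against 315 and 305, 471 and 243, and 385 and 644. The cause of these shifts was not tested.

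Deviations of arrays with the same number in different groups correlated at a median of 0.0898 over 45 pairs (range −0.0427 to 0.295). Those with different numbers correlated at a median of −0.0464 over 90 pairs (−0.314 to 0.175). As each group's mean was subtracted first, the deviations within a group cancel out. The value for different numbers is therefore tied to that for the same number and is no separate observation. Arrays of the same number thus shared a small part of their deviations, and 17 of 18 arrays correlated best with their own number. The main fit did not use the numbers. With the replicate number as a block, the counts over all probes were 1223, 1940, 621, 717, 531, and 1029, and no member count changed. Arrays limit the low end, where detected signals start at 110 to 117.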
